A study of Mus musculus with 10 samples.

Results

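The transcripts of the NF-κB transcription factor subunits and of their feedback inhibitors were read in purified mouse neutrophils. Every probe that named Nfkb1, Nfkb2, Rel, Rela, Relb, Nfkbia, Nfkbie, Tnfaip3, Bcl3 or Zc3h12a alone was taken, which gave 9 of the 10 genes, out of 19057 genes named on the array, and 12 of its 45281 probes. No probe of the annotation used here named Nfkb1, which is not analysed here. Nfkbia, Nfkbie and Zc3h12a had a pair of probes each, called the brighter and the dimmer probe by their mean signal, and the other 6 genes had 1 probe.

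NF-κB is a family of dimeric transcription factors that are held in the cytoplasm of resting cells by IκB proteins. Signals from Toll-like, interleukin 1 or TNF receptors activate the IκB kinase complex, IκB is degraded, and the freed dimers enter the nucleus and bind κB sites. Many of the genes switched on encode the pathway's own subunits and inhibitors, so that the transcripts of the inhibitors are commonly read as a sign of recent pathway activity in myeloid cells. Among the subunits, RelA and c-Rel (Rel) carry transactivation domains and act mostly in the canonical pathway, while RelB pairs with the product of Nfkb2 in the non-canonical pathway. Nfkbia and Nfkbie encode the inhibitors IκBα and IκBε, Tnfaip3 the ubiquitin-editing enzyme A20, Bcl3 a nuclear IκB-like cofactor, and Zc3h12a the endonuclease Regnase-1, which degrades inflammatory mRNAs.

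All 10 samples were neutrophils of female mice of the nude NCR strain, which is athymic and lacks most mature T cells. The fresh neutrophils came from control mice (2 arrays) or from mice that bore 4T1 tumors (2 arrays), a transplantable mouse mammary carcinoma. Neutrophils of control mice were also kept for 2 hours in OptiMEM medium with 0.5% fetal bovine serum, with 1 array per condition. The 6 conditions crossed medium with or without recombinant human G-CSF with no chemokine, mouse CCL2 or mouse CCL5. The chemokines were used at 20 ng/ml. A G-CSF dose, the age of the mice, the number of mice per array and the tissue the cells came from are not stated in the labels. Nothing says that the arrays of a fresh pair came from separate mice. The p-values of the fresh comparison thus measure the spread between these arrays, which may be technical. The cultured conditions have 1 array each, so fits of the cultured arrays take their error from departures from additive G-CSF and chemokine effects. The additive fits of all 10 arrays draw on both kinds of error. G-CSF (granulocyte colony-stimulating factor) drives the production and release of neutrophils, and CCL2 and CCL5 are CC chemokines.

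The arrays detected 13227 to 14846 probes each (29.2 to 32.8%), with a detection p-value below 0.05 counted as detected. Precision is limited by how few arrays there are. All 8 measured neutrophil markers, S100a8, S100a9 and Csf3r among them, were detected in every group, and their summed normalized signal ranged from 77500 to 84000 in fresh control, 76300 to 86900 in tumor-bearing, 59100 to 61700 in culture without G-CSF and 63900 to 64900 in culture with G-CSF. Markers of B, T and NK cells, monocytes, dendritic cells, eosinophils, basophils, red cells and platelets (46 genes) summed to 30000 to 32700 in fresh control and 17300 to 21600 in tumor-bearing arrays. The same sum was 28200 to 29400 in culture without G-CSF and 10100 to 11500 with it. Of these 46 genes, 9 were not detected in fresh control and 19 in tumor-bearing arrays, the latter including Ms4a1, Cd3g, Cd247 and Il7r. In culture, 12 were not detected without G-CSF and 15 with it. In bulk samples, fewer cells of a type and less RNA per cell cannot be told apart.

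RefSeq promoter sequences (GRCm38.p6), from 250 bases before to 50 after the annotated start, were available here for 8 of the 9 genes, all but Relb. They were searched on both strands for the 10-letter κB consensus, with overlapping matches counted. At least 1 match was found in 6 of the 8 genes (75%), against 9.55% of the 27025 genes in the promoter table. The background was not matched for base composition, and a match describes the letters only. The promoters of Rel, Nfkbia, Nfkbie, Tnfaip3 and Bcl3 are shown because these genes rose in at least 1 comparison and hold the match, which stands in capitals. Each runs 5′ to 3′ along the gene's strand, and the first of the pair of Tnfaip3 promoters is given.
Rel, chr11:23770920-23771219, minus strand: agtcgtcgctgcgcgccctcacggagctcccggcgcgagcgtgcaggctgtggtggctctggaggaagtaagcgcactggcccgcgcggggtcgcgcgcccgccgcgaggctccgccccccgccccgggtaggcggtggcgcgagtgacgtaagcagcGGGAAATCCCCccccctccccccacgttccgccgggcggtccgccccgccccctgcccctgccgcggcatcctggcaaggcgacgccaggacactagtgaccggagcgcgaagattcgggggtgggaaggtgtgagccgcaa
Nfkbia, chr12:55492598-55492897, minus strand: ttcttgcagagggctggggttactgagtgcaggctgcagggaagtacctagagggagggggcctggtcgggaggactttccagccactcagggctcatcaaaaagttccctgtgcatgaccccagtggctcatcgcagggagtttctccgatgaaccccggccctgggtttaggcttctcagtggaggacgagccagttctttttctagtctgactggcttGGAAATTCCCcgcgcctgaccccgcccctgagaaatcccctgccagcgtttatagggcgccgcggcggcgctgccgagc
Nfkbie, chr17:45555450-45555749, plus strand: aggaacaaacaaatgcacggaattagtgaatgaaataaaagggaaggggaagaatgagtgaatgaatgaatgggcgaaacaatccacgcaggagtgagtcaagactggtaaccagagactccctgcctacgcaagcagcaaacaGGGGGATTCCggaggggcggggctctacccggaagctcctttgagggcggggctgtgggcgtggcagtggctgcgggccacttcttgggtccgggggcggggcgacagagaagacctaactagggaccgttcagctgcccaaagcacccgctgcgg
Tnfaip3, chr10:19015361-19015660, minus strand: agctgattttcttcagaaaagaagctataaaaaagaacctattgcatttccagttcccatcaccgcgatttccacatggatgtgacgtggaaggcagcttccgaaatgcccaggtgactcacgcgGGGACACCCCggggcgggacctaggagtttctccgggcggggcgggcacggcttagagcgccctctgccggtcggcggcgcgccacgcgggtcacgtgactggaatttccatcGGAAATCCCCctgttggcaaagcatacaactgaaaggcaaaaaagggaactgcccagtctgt
Bcl3, chr7:19822706-19823005, minus strand: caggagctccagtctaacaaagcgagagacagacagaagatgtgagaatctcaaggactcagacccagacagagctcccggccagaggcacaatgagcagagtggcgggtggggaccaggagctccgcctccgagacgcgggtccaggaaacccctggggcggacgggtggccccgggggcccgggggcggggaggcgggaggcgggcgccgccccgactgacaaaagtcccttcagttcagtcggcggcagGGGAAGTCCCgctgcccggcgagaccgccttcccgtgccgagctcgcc

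The match of Nfkbia began 29 bases before the start and that of Nfkbie 106 bases before it. Rel held overlapping matches that began 92 and 91 bases before the start, and Tnfaip3 held matches 125 and 12 bases before it. In Bcl3 the match began 2 bases after the start. All 3 annotated promoters of Nfkb2 held a match. In promoter 1 the matches began 39, 38 and 11 bases before the start. In promoter 2 they began 236 bases before and 10 after it. In promoter 3 the only match began 225 bases before the start. The windows of promoters 2 and 3 overlap. The match in promoter 3 is the same genomic site as the match 10 bases after the start in promoter 2, not a separate site. The promoters of Rela and Zc3h12a, and the second promoter of Tnfaip3, held no match in these windows.

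**Figure D1:**
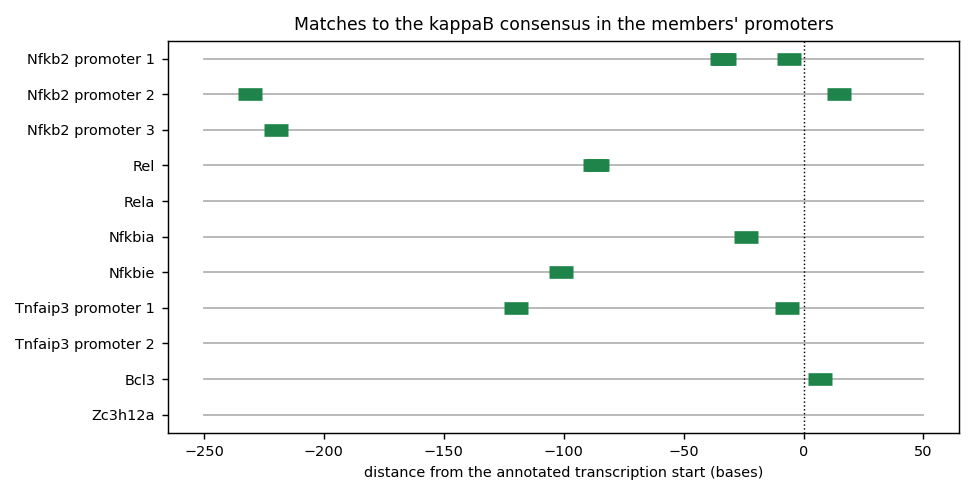
Map of the annotated promoters of the 8 genes for which a promoter sequence was available here. The horizontal axis gives the distance from the annotated start in bases, each line is 1 promoter, and marks show where the κB consensus matches. The Nfkbia match begins 29 bases before the start and the Tnfaip3 matches 125 and 12 bases before it, while Rela and Zc3h12a show none.

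The probes covered a wide range of signal. On the scale of background-corrected, quantile-normalized log2 signal, on which all values below are given, 10 of the 12 probes were detected on all 10 arrays. The Nfkb2 probe was detected only on the G-CSF and G-CSF with CCL5 arrays, and the dimmer Nfkbie probe was not detected on either tumor-bearing array. The gap within a fresh pair was 0.03 to 0.46 over the probes tested, and each value rested on 26 to 60 beads (median 41.5), with a bead standard error of 2.85 to 9.67% of the signal. Levels are compared between arrays for 1 probe at a time, since signals of different probes do not share a scale.

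**Figure D2:**
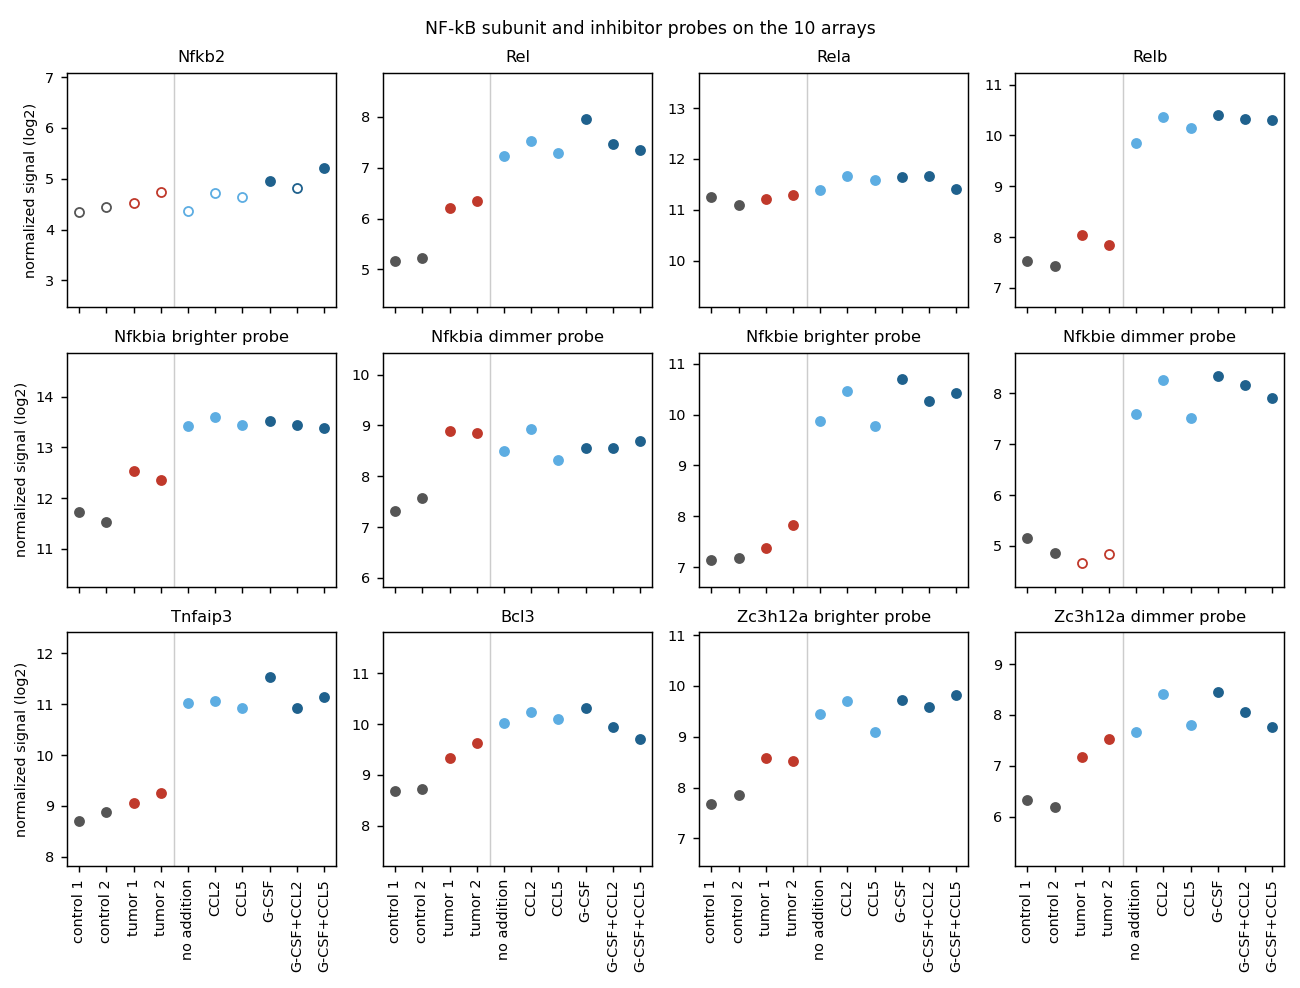
Normalized log2 signal (vertical axis) of each of the 12 probes on the 10 arrays, 1 panel per probe, in the order fresh control, fresh tumor-bearing and the 6 cultured conditions. Each point is 1 array, filled where the probe was detected and open where it was not. The cultured arrays lie above all 4 fresh arrays for 10 of the 12 probes, against 13.6% of all 17981 probes tested. The exceptions are Nfkb2 and the dimmer Nfkbia probe.

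The first comparison set fresh neutrophils of mice with tumors against those of controls. Rel, Nfkbia, Bcl3 and Zc3h12a were higher in tumor-bearing mice, by 1.71 to 2.69-fold, whereas no change of Rela, Relb, Nfkbie or Tnfaip3 passed the test. In the limma fit of the 4 fresh arrays 6 of the 11 probes tested were higher and 0 lower at an adjusted p below 0.05. Of all 14552 probes tested 24.1% were called, 11.7% higher and 12.5% lower. The median change of the 11 probes was 0.78, against 0.02 over all probes, and the tumor-bearing pair lay above the control pair without overlap for 9 of the 11 probes, against 31.3% of all probes. The sum of other blood cell markers fell with the tumor-bearing group (23 of 32 tested genes lower, 0 higher, median −1.51), and its part in these results was not tested.

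Among the subunits, Rel stood at 5.16 and 5.22 on the control arrays and at 6.21 and 6.34 on the tumor-bearing arrays. The pairs were separated by about 1 on the log2 scale and were each tight. The rise was 1.08 ± 0.19 (SE; 2.12-fold, adjusted p = 0.00143, limma, n = 2 and 2). The Rel probe is dim, and its change came to 0.41 without background correction (adjusted p = 0.00825). Rela, the RelA subunit, stood at 11.25 and 11.10 in control and at 11.22 and 11.29 in tumor-bearing mice, so the pairs overlapped. Its change was 0.08 ± 0.19 (95% interval −0.33 to 0.50, adjusted p = 0.789). Relb was read at 7.54 and 7.44 in control and at 8.04 and 7.85 in tumor-bearing mice. The tumor-bearing values were both higher, but the difference of 0.45 ± 0.19 did not pass the test (adjusted p = 0.105). It passed under other background settings, at 0.39 with an offset of 50 (adjusted p = 0.0431) and at 0.32 without background correction (adjusted p = 0.0359). Nfkb2 was not detected on any fresh array, at 4.34, 4.45, 4.52 and 4.73, and was not tested.

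Among the inhibitors, Nfkbia rose on both probes. The brighter probe stood at 11.72 and 11.53 in control and at 12.53 and 12.36 in tumor-bearing mice, and the dimmer at 7.32 and 7.58 against 8.90 and 8.86. Neither probe's pairs overlapped. The rises were 0.82 ± 0.19 (1.77-fold, adjusted p = 0.00929) and 1.43 ± 0.19 (2.69-fold, adjusted p = 0.000244). Without the first tumor-bearing array the brighter probe's rise was 0.73 and missed the threshold (adjusted p = 0.0515). Bcl3 was read at 8.69 and 8.72 in control and at 9.34 and 9.62 in tumor-bearing mice, again without overlap. Its rise was 0.78 ± 0.20 (1.71-fold, adjusted p = 0.0129), and 0.64 without the second tumor-bearing array (adjusted p = 0.106).

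Zc3h12a also rose on both probes. The brighter one went from 7.68 and 7.86 to 8.58 and 8.53, and the dimmer from 6.33 and 6.19 to 7.17 and 7.52. These were rises of 0.79 ± 0.19 (1.72-fold, adjusted p = 0.0107) and 1.08 ± 0.20 (2.12-fold, adjusted p = 0.00222). The dimmer probe's rise came to 0.61 without background correction and still passed the test (adjusted p = 0.00126). Tnfaip3 was read at 8.70 and 8.88 in control against 9.06 and 9.25 in tumor-bearing mice, a difference of 0.36 ± 0.19 whose interval, −0.06 to 0.78, includes 0 (adjusted p = 0.196). The Nfkbie probes differed in sign. The brighter one stood at 7.14 and 7.18 in control against 7.37 and 7.83 (0.44 ± 0.21, adjusted p = 0.145). The dimmer one was at 5.15 and 4.86 against 4.66 and 4.85, with both tumor-bearing arrays not well above background. This difference did not pass the test, and its interval, −0.68 to 0.18, includes 0 (adjusted p = 0.396, limma). The dimmer Nfkbie probe entered this fit only through the 2 control arrays that detected it, so its sign is not independent of that filter.

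**Figure D3:**
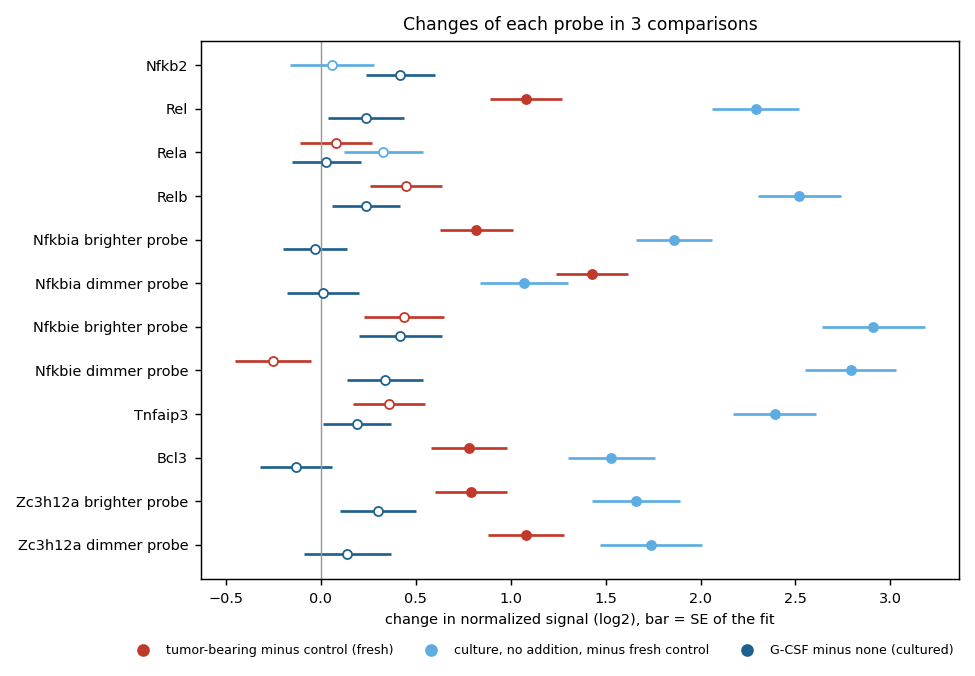
Change of each probe on the log2 scale (horizontal axis) in 3 comparisons, with bars for the standard error of the fit. Filled points passed an adjusted p of 0.05 and open points did not; Nfkb2 has no tumor-bearing value. Changes in culture reach 2.91 for the brighter Nfkbie probe and those in tumor-bearing mice 1.43 for the dimmer Nfkbia probe, while the changes with G-CSF lie between −0.13 and 0.42.

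Culture for 2 hours without addition was then set against fresh control cells. The condition with no addition has 1 array, so its level was estimated from all 6 cultured arrays, with additive G-CSF, CCL2 and CCL5 effects. The fitted rises can therefore differ from those read off the array with no addition. Neutrophils taken from control mice and cultured carried more transcript of Rel and Relb and of every inhibitor, by 2.10 to 7.52-fold. In the fit of all 10 arrays 10 of the 12 probes were higher and 0 lower, in 7 of the 9 genes. Of the 17981 probes tested 32.8% were called, 15.5% higher and 17.3% lower. The median change of the 12 probes was 1.80 against −0.03 over all probes, and the 6 cultured arrays lay above the fresh control pair without overlap for 11 of the 12 probes (91.7%), against 18.9% of all probes. Handling time, medium and experiment changed together with culture and cannot be told apart. This comparison shares the fresh control arrays with the tumor-bearing one, so their values are given side by side and not as independent results. Of the 8 neutrophil markers 5 were lower and 1 higher in culture (median −0.67), and other blood cell markers were lower for 14 and higher for 7 of the 34 tested. Their part in the rises of the NF-κB genes was not tested.

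Rel, at 5.16 and 5.22 in fresh control cells, was at 7.24 with no addition and at 7.52 with CCL2, 7.29 with CCL5, 7.96 with G-CSF, 7.47 with G-CSF and CCL2 and 7.34 with G-CSF and CCL5. Every cultured value was above both the control and the tumor-bearing pair, and the fitted rise was 2.29 ± 0.23 (4.89-fold, adjusted p = 5.07e-06). Without background correction this rise came to 1.10 (adjusted p = 7.48e-06). Relb went from 7.54 and 7.44 in fresh control cells to 9.85 with no addition, and lay between 9.85 and 10.41 over the cultured arrays. Its rise of 2.52 ± 0.22 (5.75-fold, adjusted p = 1.2e-06) was the largest among the 4 subunit probes. Rela was at 11.39 with no addition and between 11.39 and 11.67 over the cultured arrays. These values were above all 4 fresh arrays, but the change of 0.33 ± 0.21 did not pass the test (95% interval −0.11 to 0.78, adjusted p = 0.247), except without background correction (0.32, adjusted p = 0.0496). Nfkb2 remained undetected in culture without G-CSF, at 4.37 with no addition, and its change was 0.06 ± 0.22 (adjusted p = 0.863).

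Nfkbie, which encodes IκBε, had the largest change of the 12 probes. Its brighter probe stood at 7.14 and 7.18 in fresh control cells and at 9.87 with no addition, 10.47 with CCL2, 9.78 with CCL5, 10.69 with G-CSF, 10.27 with G-CSF and CCL2 and 10.43 with G-CSF and CCL5. No cultured array came near the fresh values, and the rise was 2.91 ± 0.27 (7.52-fold, adjusted p = 2.24e-06). The dimmer probe moved from 5.15 and 4.86 to between 7.52 and 8.34 (2.79 ± 0.24, adjusted p = 1.19e-06), or by 1.38 without background correction. Against the tumor-bearing arrays, where it was not well above background, the 6 cultured arrays were at least 8.60-fold higher.

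Tnfaip3 went from 8.70 and 8.88 to 11.03 with no addition, and lay between 10.93 and 11.53 in culture. The cultured and fresh ranges were well apart, and the rise was 2.39 ± 0.22 (5.24-fold, adjusted p = 2.31e-06). Bcl3 went from 8.69 and 8.72 to 10.02 with no addition, with cultured values of 9.70 to 10.32 (1.53 ± 0.23, 2.89-fold, adjusted p = 0.000163). Its lowest cultured value lay close to the higher tumor-bearing value of 9.62. The Zc3h12a probes rose by 1.66 ± 0.23 (3.16-fold, adjusted p = 9.15e-05) and 1.74 ± 0.27 (3.33-fold, adjusted p = 0.000219), with cultured values of 9.09 to 9.83 and of 7.67 to 8.46. Without background correction the dimmer probe rose by 1.07 (adjusted p = 0.000132). Both ranges lay above the tumor-bearing values of the same probe.

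The Nfkbia probes gave different orders of the groups. On the brighter probe the cultured arrays, at 13.39 to 13.59, lay above the tumor-bearing pair, and the rise over fresh control was 1.86 ± 0.20 (3.62-fold, adjusted p = 1.13e-05). On the dimmer probe the cultured arrays, at 8.50, 8.94, 8.33, 8.56, 8.55 and 8.70, overlapped the tumor-bearing values of 8.90 and 8.86. The rise over fresh control was 1.07 ± 0.23 there (2.10-fold, adjusted p = 0.00253). The difference between the probes, brighter minus dimmer, was 4.40 and 3.95 in fresh control, 3.64 and 3.50 in tumor-bearing and 4.64 to 5.11 in cultured cells, so the 3 kinds of sample did not overlap. This difference was not tested, and the labels and files do not state which transcript variants the probes read.

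G-CSF was compared with no G-CSF over the 6 cultured arrays, 3 with it and 3 without, which also enter the culture comparison. No NF-κB probe passed the test: 0 of 12 were called by limma, against 26.1% of the 15513 probes tested, 13.7% higher and 12.4% lower. At an unadjusted p below 0.05, 1 of the 12 passed. The changes lay between −0.13 and 0.42, with a median of 0.21 against 0.04 over all probes. The result depended on the scaling of the arrays. The arrays with G-CSF were brighter, with a 95th percentile of the deposited signal of 775 to 940 against 564 to 638. When each array was only scaled to 1 median, 9 of the 12 probes were called higher, while the median of all probes moved from 0.04 to 0.37, the number of all probes called rose from 4047 to 7377 and the share of calls that were higher from 52.6 to 87.5%. Relative to the median of all probes, the median of the 12 probes was 0.17 higher under quantile normalization and 0.24 higher under median scaling. The sum of other blood cell markers was lower with G-CSF (21 of 31 tested genes lower and 0 higher, or 17 and 5 under median scaling), and its part in these values was not tested.

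Nfkb2 was the only probe at an unadjusted p below 0.05. It was read at 4.37 with no addition, 4.72 with CCL2 and 4.64 with CCL5, and at 4.96 with G-CSF, 4.81 with G-CSF and CCL2 and 5.21 with G-CSF and CCL5. All 3 G-CSF values were above the 3 others, which were not well above background, and of the 3 G-CSF arrays 2 detected the probe. The mean was 4.99 with and 4.58 without G-CSF, both near background, and the difference did not pass the test (adjusted p = 0.122, limma). The probe entered this fit only through the 2 G-CSF arrays that detected it, so its direction is not independent of that filter. Of all 15513 probes tested, 23.4% lay higher with G-CSF without overlap. The brighter Nfkbie probe had a fitted difference of 0.42 ± 0.22 (95% interval −0.06 to 0.91, adjusted p = 0.18). It passed the test without the CCL2 array and without the array with G-CSF and CCL2, at 0.73 in each (adjusted p = 0.0272 and 0.0276), and without background correction at 0.39 (adjusted p = 0.0381). Intervals for Nfkbia were −0.41 to 0.35 on the brighter and −0.42 to 0.45 on the dimmer probe, and that for Bcl3 was −0.55 to 0.30. For Rela the interval was −0.36 to 0.42, for Relb −0.17 to 0.64 and for Rel −0.20 to 0.68. Under median scaling the probes of Nfkbie reached 0.84 and 0.92, Rel 0.82, Zc3h12a 0.79 and 0.71, Relb 0.66, the dimmer Nfkbia probe 0.56, Tnfaip3 0.53 and Nfkb2 0.52, all past the threshold.

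CCL2 and CCL5 were compared with no chemokine in the same additive fit. Neither changed a member of the family by the test: limma called 0 of 12 probes for CCL2, for CCL5 and for their mean, and 0% of all 15513 probes. At an unadjusted p below 0.05, 0 of the 12 passed in each of these, against 727, 576 and 591 of all probes. The fitted changes ran from −0.28 to 0.25 for CCL2 and from −0.28 to 0.26 for CCL5, with standard errors of 0.21 to 0.28. A change had to be well beyond its standard error to pass after adjustment over all probes. Chemokine effects larger than these standard errors could therefore have gone uncalled, and they are not excluded.

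Single arrays at matched conditions showed a pattern across the family, which has no replicate and no test of its own. Adding CCL2 to medium without G-CSF went with higher values of all 12 probes, by 0.03 to 0.74, against 48.3% of all probes. With G-CSF present, CCL2 went with lower values of 11 of the 12, between −0.59 and 0.03, against 49.6% of all probes higher. The dimmer Zc3h12a probe, for example, was 0.74 higher with CCL2 alone and differed by −0.40 when G-CSF was present. For the brighter Nfkbie probe these differences were 0.60 and −0.42. G-CSF alone went with higher values of all 12 probes, by 0.07 to 0.82, against 53% of all probes, while with CCL2 present 2 of 12 were higher and with CCL5 present 8 of 12. CCL5 went with higher values of 7 of 12 probes without G-CSF (median 0.04) and of 3 of 12 with it (median −0.25, against −0.16 for CCL2). These pairs share arrays. The array with no addition was the lower one for all 12 probes against both the CCL2 and the G-CSF array. The G-CSF array was the higher one for all 12 probes against no addition, for 11 against G-CSF with CCL2 and for 9 against G-CSF with CCL5. Under median scaling all 12 probes were higher with G-CSF in each of the 3 pairs, against 72.4 to 75.6% of all probes. With CCL2, 11 of 12 were then higher without G-CSF (37.7% of all probes) and 0 with it (26.9%).

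**Figure D4:**
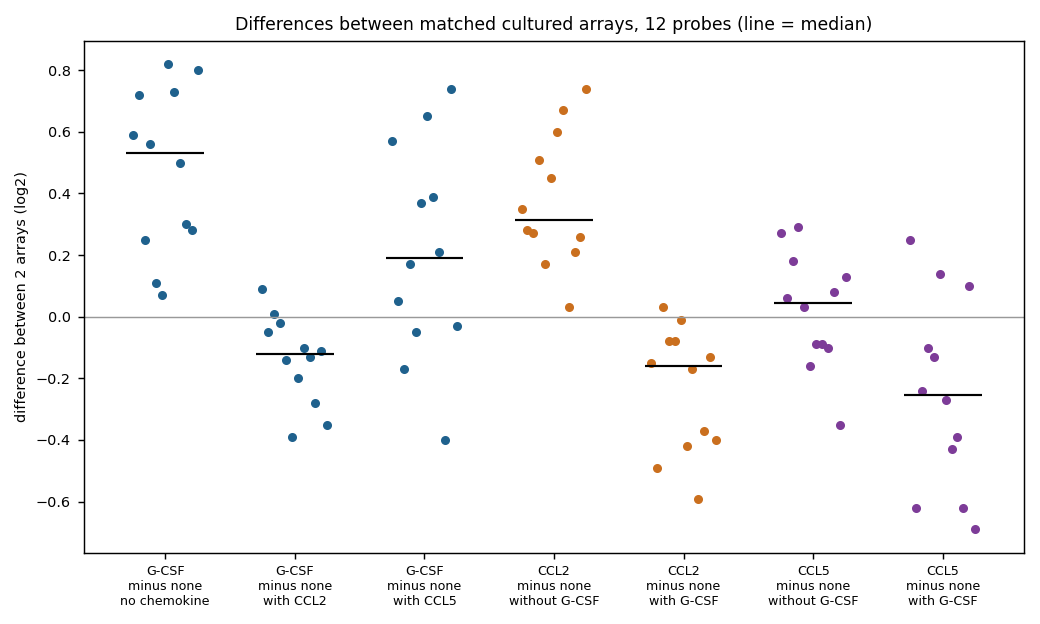
Difference between single arrays at matched conditions (log2), for each of the 12 probes. Each point is 1 probe, each column 1 pair of arrays and each line the median; there is no error bar because each condition has 1 array. With CCL2 in medium without G-CSF all 12 points lie above 0, and with G-CSF 11 of 12 lie below it.

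The change of each chemokine effect by G-CSF was tested in a fit of 8 group means, whose error rests on the 2 fresh pairs only. For CCL2 the difference was negative for all 12 probes, −1.14 to −0.25, with a median of −0.58 against 0.01 over all probes. None of the 12 passed, and 0% of all 17981 probes did. The lowest adjusted p among the 12 was 0.45, and 2 passed at an unadjusted p below 0.05, namely the dimmer Zc3h12a probe (−1.14 ± 0.39) and the brighter Nfkbie probe (−1.02 ± 0.41), against 1644 of all probes. For CCL5 the interaction was positive for 2 of 12 probes and ranged from −0.83 to 0.45, with 0 of 12 at an unadjusted p below 0.05 and a lowest adjusted p of 0.689.

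The difference between the G-CSF effect in culture and the effect of tumor bearing was tested directly over the 10 arrays. These effects start from different levels, since the G-CSF effect is read on cultured cells. With no addition the Nfkbia probes stood at 13.41 and 8.50, against fresh control means of 11.63 and 7.45. The part of the starting level in these differences was not tested. The dimmer Nfkbia probe changed less with G-CSF than with tumor bearing, by −1.41 ± 0.28 (adjusted p = 0.00356). The brighter Nfkbia probe (−0.85 ± 0.24, adjusted p = 0.0274), Bcl3 (−0.90 ± 0.28, adjusted p = 0.0354) and Rel (−0.85 ± 0.28, adjusted p = 0.0476) passed as well. These 4 of 12 probes, all lower, stood against 18.6% of all 17981 probes called, 8.51% lower and 10.1% higher. Only the dimmer Nfkbia probe passed with each of the 10 arrays left out in turn. The other 3 passed in 2 of the 10 such fits each, and without a filter on dim probes Bcl3 and Rel were lost. Rel was also lost under median scaling, at −0.25 (adjusted p = 0.573), and without background correction, at −0.25 (adjusted p = 0.301). Bcl3 under median scaling was at −0.64 (adjusted p = 0.124). No difference between the G-CSF and tumor-bearing effects passed for Nfkb2, Rela, Relb, Tnfaip3, Nfkbie or Zc3h12a. The dimmer Zc3h12a probe was close (−0.94, adjusted p = 0.0575) and passed when only probes detected on every array were tested (adjusted p = 0.0296), and at −1.27 without the array with no addition (adjusted p = 0.0107) or without the G-CSF array (adjusted p = 0.0105). Under median scaling the dimmer Nfkbie probe had a difference of 1.22 that passed (adjusted p = 0.00854).

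The other genes of the pathway were read from 3 lists of known activators, inhibitors and targets, each gene from its brightest probe. The lists were chosen with earlier results of these data known, so their counts are not an independent comparison. In tumor-bearing mice the 22 activators tested had 2 higher and 1 lower, the 18 other inhibitors 1 higher and 0 lower, and the 28 targets 8 higher and 4 lower. Over all probes 11.7% were higher and 12.5% lower, so the counts of activators and other inhibitors did not exceed that share. The list medians were 0.08, 0.05 and 0.28, against 0.02 over all probes. The higher targets included Tnfsf9, which encodes the 4-1BB ligand (2.45 ± 0.19, adjusted p = 3.72e-06), and the neutrophil chemokines Cxcl1 (1.47 ± 0.22) and Cxcl2 (1.17 ± 0.19). The lower ones included the costimulatory receptor Cd40 (−2.20 ± 0.20, adjusted p = 1.03e-05), of which another probe read −0.64, Cd83 (−1.50 ± 0.20, detected on 1 of the 2 tumor-bearing arrays) and Bcl2a1d (−0.93 ± 0.19), whose near-identical copies may share its probe. Among the activators the adaptor Tradd (0.86 ± 0.20) and Card9 (0.70 ± 0.21, detected on 1 of the 2 control arrays) were higher and Tab1 was lower (−0.76 ± 0.19). Nkiras2 was the inhibitor that was higher (0.64 ± 0.19). Cd40 and Cd83 are also expressed by B cells and dendritic cells, whose markers fell in the same arrays (5 of 6 and 4 of 5 tested genes lower). The same numbers of these markers were lower with G-CSF in culture. Cd40 was higher there (0.73 ± 0.17, another probe reading 0.23). Cd83 stood at 9.13, 9.10 and 9.23 with G-CSF against 9.20, 9.35 and 9.43 without it. The part of such cells in the values of Cd40 and Cd83 was not tested.

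In culture 20 of 31 targets were higher and 2 lower, with a median of 1.76, against 15.5% higher, 17.3% lower and a median of −0.03 over all probes. Tnf, at 7.94 and 7.98 in fresh control cells, stood at 13.12 to 13.48 in all 6 cultures and rose by 5.48 ± 0.21 (adjusted p = 7.34e-10). Cxcl1 rose by 4.19 ± 0.23 (adjusted p = 1.94e-08). Traf1, a signalling adaptor of TNF receptors, was not well above background in fresh control cells and was at least 82.4-fold higher in the 6 cultured arrays (adjusted p = 2.42e-10), while a second probe had a fitted change of 4.47. Plaur (−0.75 ± 0.20) and the brightest Irf1 probe (−0.64 ± 0.21) were lower. Other Irf1 probes read −0.42, −0.06, 0.09 and 0.12, so the fall of Irf1 was not shared by all its probes. The activators had 9 higher and 2 lower of 23, with a median of 0.37. They were led by the IκB kinase relative Ikbke (3.20 ± 0.23, adjusted p = 2.32e-07), Irak2 (2.79 ± 0.21) and Tbk1 (1.30 ± 0.20), and the lower ones were Sharpin (−1.73 ± 0.27) and Rnf31 (−0.90 ± 0.23), partners in the linear ubiquitin ligase. The other inhibitors had 8 higher and 1 lower of 20, with a median of 0.19, which was −0.01 under median scaling (6 higher, 2 lower). They included the A20 partner Tnip1 (2.40 ± 0.21), Nfkbib, which encodes IκBβ (1.77 ± 0.25), and Irak3 (1.68 ± 0.23), while Tnip2 was lower (−1.06 ± 0.22).

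With G-CSF the share of all probes called was 13.7% higher and 12.4% lower, and the counts of targets were near it. The activators had 5 higher and 1 lower of 23, the other inhibitors 4 higher and 1 lower of 18, and the targets 5 higher and 4 lower of 30, with medians of 0.18, 0.15 and −0.08 against 0.04 over all probes. Ikbke stood at 8.29, 7.96 and 8.07 without and at 10.17, 10.27 and 10.45 with G-CSF. The groups were far apart, and the rise was 2.19 ± 0.18 (adjusted p = 5.11e-05). Tradd was higher too (0.95 ± 0.17), and Map3k7, not well above background without G-CSF, was at least 1.63-fold higher (adjusted p = 0.00639, limma). Map3k7 was detected on the 3 arrays with G-CSF only and entered the test through them, so its direction is not independent of that filter. Map3k14, the kinase of the non-canonical pathway, was lower (−0.84 ± 0.21). The deubiquitinase Cyld (1.14 ± 0.17, another probe reading −0.33), Nfkbib (0.86 ± 0.19) and Tnip1 (0.75 ± 0.17) were higher and Rnf11, an A20 partner, was lower (−1.20 ± 0.17). Among targets Bcl2l1 (0.94 ± 0.20), Cd40 (0.73 ± 0.17) and Sod2 (0.63 ± 0.17) were higher, and Csf1 (−0.66 ± 0.17), Cxcl2 (−0.65 ± 0.19) and Ccl4 (−0.64 ± 0.17) were lower. Under median scaling 13 of 23 activators were higher and 0 lower, 11 of 18 inhibitors higher and 1 lower, and 10 of 30 targets higher and 1 lower, with medians of 0.66, 0.58 and 0.28, so the balance among the targets depended on the scaling.

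**Figure D5:**
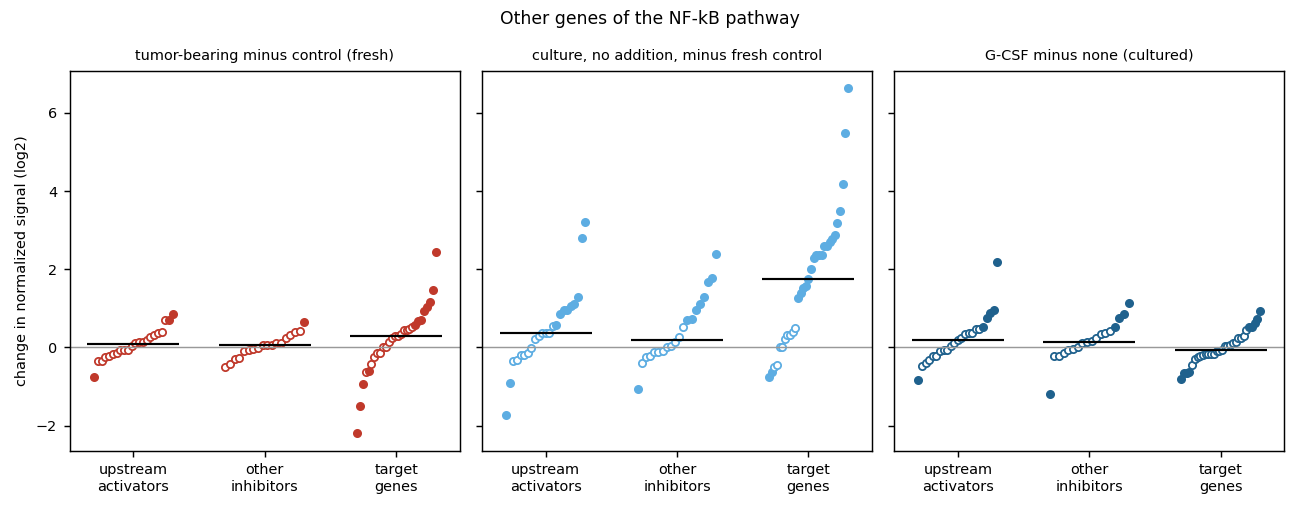
Change in normalized signal (log2, vertical axis) of each gene of the 3 pathway lists in 3 comparisons. Each point is 1 gene, filled where it passed the test, and lines are medians; the target genes in culture have the highest, 1.76, and the topmost point there is the fitted value of Traf1, which has only a bound.

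By likeness over the 10 arrays, the profile of Relb was closest to Tnfaip2 (Pearson r = 0.995) and Mapkapk2 (0.994), and that of Tnfaip3 to Sphk2 (0.993) and Traf1 (0.991). Nfkbia was closest to Acod1 (0.993) and Cgas (0.989), and Nfkbie to Alas1 (0.995) and Gnb1 (0.994). Rel ran with Nudt9 and Clec4e (0.98 each), Bcl3 with Syap1 (0.988) and Eif5a (0.981), and Zc3h12a with Tnfrsf22 (0.983) and Psmb1 (0.98). For Rela and Nfkb2, the members without a called change, the closest profiles were looser, with Srp54a (0.941) and Adnp2 (0.935) for Rela and Vamp3 and Trim69 (0.932 each) for Nfkb2. These coefficients were the highest of 9673 genes, and the 10 points fall into fresh and cultured arrays, a split that they share.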

How the data were processed

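Total RNA of purified neutrophils was extracted with Trizol, labelled with Cy3 and read on 10 Illumina bead arrays, per the labels. Per the file headers, the unprocessed deposited table holds each probe's mean signal intensity, bead number and bead standard error (other) and a detection p-value, which are multiples of 1 over 936 negative controls. The authors' second deposited table holds log2 values, which matched, within 0.00531, the quantile-normalized signals with no background removed. Partek is named in the submitters' processing notes without a version.

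From the intensities, values were computed with limma 3.58.1 in R 4.3.3 by the normexp correction (nec, offset 16), log2 and quantile normalization. Probes detected at a p-value below 0.05 on at least 2 arrays of a fit were tested, with Benjamini-Hochberg adjustment over all of them and a threshold of 0.05. The annotation names 1 gene for 34885 probes, several for 18 and none for 10378. The fit of the fresh arrays and the additive fit of the cultured arrays leave 2 residual degrees of freedom each, the additive fit of 10 arrays 4, and that of 8 group means 2. Where a group was not detected, a bound uses the lowest detected value of each array. Up to 3 higher and 3 lower genes per list and comparison, by smallest p, and the 2 most alike genes per member are named. Where a gene's other probe differed by more than 1 on the log2 scale in a comparison for which the gene is named, its value is given. Members and lists were chosen with earlier results of these data known. The fits were tested on simulated data. The labels do not say that same-numbered fresh arrays pair, and the main fit did not pair them. Their deviations correlated at 0.0707, which cannot by itself exclude a pairing. Alternatives covered background, scaling, filters, the arrays fitted, the authors' values and each array left out.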

Additional observations from a re-analysis of the deposited data

How the results depend on the processing

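Over 1492 values of single probes under the alternatives, 1437 kept their direction or stayed uncalled and kept their side of the threshold, 33 lost a call, 22 gained one and 0 called values turned sign. Of the 6 probes called in tumor-bearing mice the alternatives gave 4 to 7, and 5 to 6 with an array left out. With the replicate number as a block (replicate block) the count was 6 and that of all probes 4072 against 3509, and the block changed no call of a probe. In culture the 10 calls became 7 to 11, and 10 with any array left out. With G-CSF the count was 9 under median scaling, 1 without background correction, 1 with the authors' values, 0 in the main setting and 0 to 1 with an array left out. The 4 calls of the G-CSF minus tumor-bearing difference became 2 without a filter on dim probes and 1 to 5 with an array left out. The chemokine counts stayed at 0.

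Counts over all probes moved by more than 1.5 times as follows. In tumor-bearing mice 3509 became 2246 without a filter, 2086 with 1 probe per gene (of 8019 tested) and 2081 without the second tumor-bearing array. With G-CSF 4047 became 7377 under median scaling, 2485 with 1 probe per gene, 1995 without the CCL5 array and 1827 without the array with G-CSF and CCL5. In culture 5905 became 3335 with 1 probe per gene and 3792 without the array with no addition. For the difference 3349 became 2059 with 1 probe per gene, and 1982, 2110 and 1701 without the first control, the first tumor-bearing and the second tumor-bearing array. For CCL2 and the mean of both chemokines 0 became 1 without the CCL2 array. Under median scaling the share of calls that were higher moved from 48.4 to 55.4% in tumor-bearing mice and from 47.3 to 34.6% in culture, and the median of all probes in culture from −0.03 to −0.13, with 6 and 10 of the NF-κB probes called higher either way. Interactions with a lone cultured array left out could not be fitted. Dim probes, Nfkb2, Rel and the dimmer Nfkbie probe, are limited by signal over background.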

Other observations

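The pathway lists also held genes whose change with G-CSF differed from that with tumor bearing. Among 31 targets 3 were higher and 8 lower in this difference, against 10.1% higher and 8.51% lower over all probes. The higher ones were Cd40 (2.93 ± 0.25, adjusted p = 2.04e-05, limma; another probe read 0.87), Cd83 (1.32 ± 0.25, adjusted p = 0.00276, detected on 1 of the 2 tumor-bearing arrays) and the adhesion molecule Icam1 (1.16 ± 0.28, adjusted p = 0.011). Among the lower ones were Cxcl2 (−1.82 ± 0.27, adjusted p = 0.000598) and Cxcl1 (−1.63 ± 0.27, adjusted p = 0.00145), chemokines that attract neutrophils. Cxcl2 stood at 10.33 and 10.29 in fresh control and at 11.54 and 11.43 in tumor-bearing cells, and at 11.12, 11.23 and 11.06 in the cultures with G-CSF against 11.38, 12.25 and 11.72 without it. Tnfsf9 was called lower as well (adjusted p = 6.17e-05), but no cultured array detected it. Among 23 activators 2 were higher and 0 lower, Ikbke (1.82 ± 0.27, adjusted p = 0.000688) and Tab1 (1.29 ± 0.24, adjusted p = 0.00274), a count near or below the share over all probes. Among 20 other inhibitors 4 were higher and 1 lower. The higher ones included Cyld (1.64 ± 0.24, adjusted p = 0.000596, another probe reading −0.19) and N4bp1 (0.84 ± 0.25, adjusted p = 0.0338, another probe reading −0.03). Commd1 was also higher (0.79 ± 0.25, adjusted p = 0.0422, another probe reading 0.17). The lower one was Rnf11 (−1.33 ± 0.25, adjusted p = 0.00268).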
